A study of Homo sapiens with 13 samples.

Results

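ZNF genes are named for zinc fingers, and the genes described here were those with a symbol of ZNF, digits and at most 1 letter whose RNA was measured at a mean SCAN score of at least 0.5 in H1975 cells. A SCAN score is the authors' measure of a feature on 1 array, standardised within that array, with values near 0 at background. Differences of scores are therefore given in SCAN units and not as folds. By symbol 484 features of 471 ZNF genes were on the array, 317 of these features reached the mean of 0.5 over 13 arrays, and 315 genes remained when the feature with the highest mean was kept for each symbol. All 315 passed the filter on dim features, as did 448 of the 471 ZNF genes. The whole table held 12764 tested features of 12180 symbols, 7137 of them with a mean of at least 0.5. The genes were thus chosen by their mean score over the 13 arrays, so levels are described without a test, and the tests concern differences between time points.

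Most ZNF proteins carry tandem C2H2 zinc fingers, in which each finger folds around a zinc ion and contacts a few bases of DNA. Many also carry a KRAB domain, which recruits the corepressor TRIM28 and through it histone methylation, heterochromatin protein 1 and DNA methylation, and a main known target of this repression is transposable elements. The family grew by tandem duplication, and large clusters of it lie on human chromosome 19, where neighbours can be so alike that array probes may share signal between them.

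H1975 is an established human lung adenocarcinoma line, so a single cell line was followed. All cells had been washed and kept overnight in medium without serum (FCS) before 0 h, and all were then held in starvation medium with no growth factor added. Arrays were available for 0 h (3), 0.5, 1, 2, 4 and 6 h (1 each), 24 h (2) and 48 h (3), and the question was how RNA levels moved with time in the untreated arm of a growth factor study. The labels do not say that replicates came from separate cultures, so the p-values reflect the spread among these arrays alone, which may be technical. Because RNA was measured in bulk, fewer expressing cells and less RNA per cell cannot be told apart. The epithelial label matched the markers, with a mean score of 2.86 for KRT18, 2.18 for EPCAM and 1.43 for NKX2-1, although the surfactant gene SFTPB was near background at 0.137. KRT18 and NKX2-1 each had a second, dimmer feature, at 1.43 and 0.374. In contrast, CD14 (monocytes), VWF (endothelium) and DCN (fibroblasts) scored 0.0608, -0.023 and -0.11, and the other 8 of the 11 markers of other cell types were not measured here.

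A pair of arrays stood apart. The array of 0 h replicate 1 correlated with 0 h replicates 2 and 3 at 0.982 and 0.983 over tested features, while replicates 2 and 3 correlated at 0.996. Set against the mean of the other 6 arrays of 0 to 6 h, the ZNF genes lay at a median of 0.0746 SCAN units on 0 h replicate 1 and of 0.0418 on the array of 2 h, and the other features with a mean of at least 0.5 at 0.0197 and 0.00811. On both arrays at once, 109 ZNF genes (34.6%) lay above all 6 other early arrays and 31 (9.84%) below them, beside 30.2% and 24.0% of all tested features with a mean of at least 0.5. The ZNF genes thus sat high on this pair of arrays more often than low, and the 0 h array of the pair pulls the 0 h mean up. The study's methods name a suspected magnesium problem as a reason for leaving arrays out, without saying which arrays. The main counts are therefore given over all 13 arrays and over the 11 arrays without this pair. Values of single genes are over 13 arrays unless stated, and for some genes the value over 11 arrays is added. Where it is not added, the value over 11 arrays may still differ. As 2 h has 1 array and its own coefficient, leaving it out changes no tested difference unless arrays are rescaled together. The pair was picked from these same scores. Without 0 h replicate 1 the median SD of the ZNF genes at 0 h went from 0.0772 to 0.0358. The p-values and added calls over 11 arrays are conditional on that choice.

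**Figure D1:**
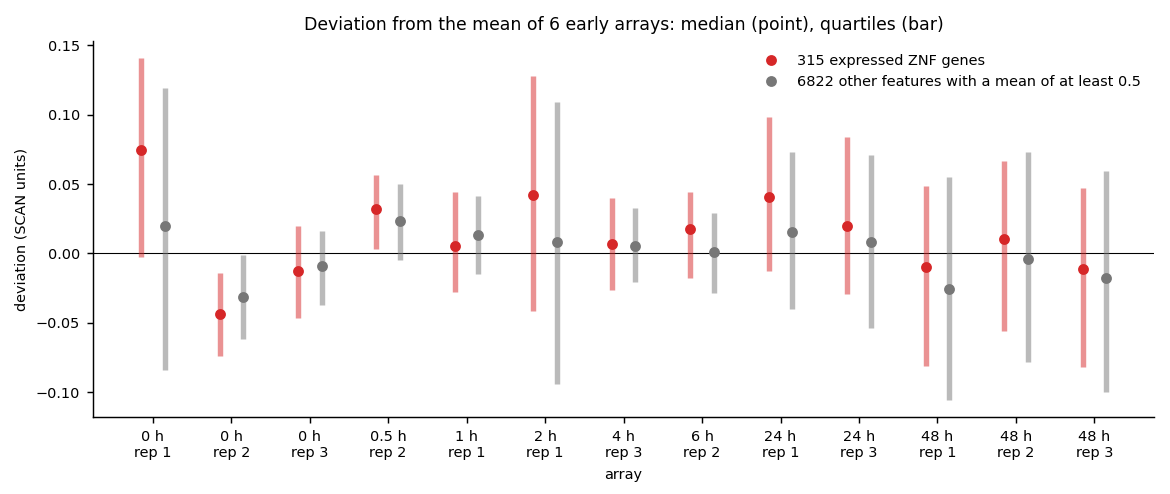
Deviation of each array from the mean of 6 early arrays (0 h replicates 2 and 3, 0.5, 1, 4 and 6 h), in SCAN units. Points are medians and bars run between the quartiles, in red for the 315 expressed ZNF genes and in grey for 6822 other features with a mean of at least 0.5. The red medians of 0 h replicate 1 (0.0746) and 2 h (0.0418) are the highest of all arrays.

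Mean scores of the 315 genes ran between 0.5 and 2.97 with a median of 0.983, below the median of 1.17 over the 7137 tested features with a mean of at least 0.5. ZNF841 had the highest mean (2.97), followed by ZNF117 (2.70), ZNF114 (2.63), ZNF43 (2.49) and ZNF431 (2.44). ZNF841 scored 3.05, 3.06 and 3.01 at 48 h, against 3.02, 2.94 and 2.98 at 0 h, and the groups overlapped. At the edge of the selection, ZNF534 (0.515), ZNF397 (0.514), ZNF700 (0.504), ZNF790 (0.501) and ZNF764 (0.5) were the last genes inside, and ZNF354B (0.498), ZNF44 (0.497), ZNF391 (0.496), ZNF225 (0.493) and ZNF555 (0.49) the first outside. Of the 315 genes 312 were annotated as protein coding and 3 as transcribed pseudogenes, and 165 lay on chromosome 19, which holds 226 of the 471 ZNF genes on the array. A second feature of the same symbol existed for 9 genes, and for 1 of them, ZNF248, it differed in its call: the kept feature changed by -0.0719 and the other, with a mean of 0.347, by 0.138 (adjusted p = 0.0217, limma).

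At 48 h a minority of ZNF genes had moved, in both directions. Over 13 arrays 23 ZNF genes were higher and 31 lower at 48 h than at 0 h past an adjusted p of 0.05 in limma, which is 17.1% of 315, beside 18.8% of all tested features and 28.3% of tested features with a mean of at least 0.5 (13.9% higher and 14.4% lower). The median difference was -0.00885 SCAN units for the ZNF genes, -0.00173 for all tested features and -0.00778 for those with a mean of at least 0.5. Over the 11 arrays 50 were higher and 32 lower (26.0%, beside 26.8% and 39.3%, the last being 20.7% higher and 18.6% lower), with a median of 0.0247. All 23 and all 31 were called over the 11 arrays too, 27 more were higher there and 1 more was lower. Without these arrays, then, the number of lower genes was almost the same and the number of higher genes was larger.

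Differences of the ZNF genes were narrower than those of other features of like level. Their standard deviation over genes was 0.129 SCAN units, against 0.178 for the other features with a mean of at least 0.5, while the median standard error was 0.0451, against 0.0434. A difference of over 0.2 in size was seen in 10.2% of ZNF genes and 17.3% of the others. Split by mean score, the share called was 12.4% of ZNF genes against 23.6% of others under 0.75, 16.7% against 26.9% at 0.75 to 1, 16.2% against 29.2% at 1 to 1.5, and 27.3% against 32.7% at 1.5 or more. The ZNF share was the lower in each of these 4 classes over 13 arrays, and likewise over 11 arrays, at 21.3%, 27.8%, 24.2% and 34.5% of ZNF genes against 31.3%, 36.4%, 41.2% and 45.7% of others. In 47 ZNF genes every 48 h array lay above every 0 h array and in 55 every one lay below, while the groups overlapped in 213. The share without overlap was 45.1% of tested features with a mean of at least 0.5 (21.9% above and 23.2% below) and 34.9% of all tested features. All 23 higher and all 31 lower genes were among those without overlap. As the same arrays gave the calls, lack of overlap in a called gene is no further support.

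**Figure D2:**
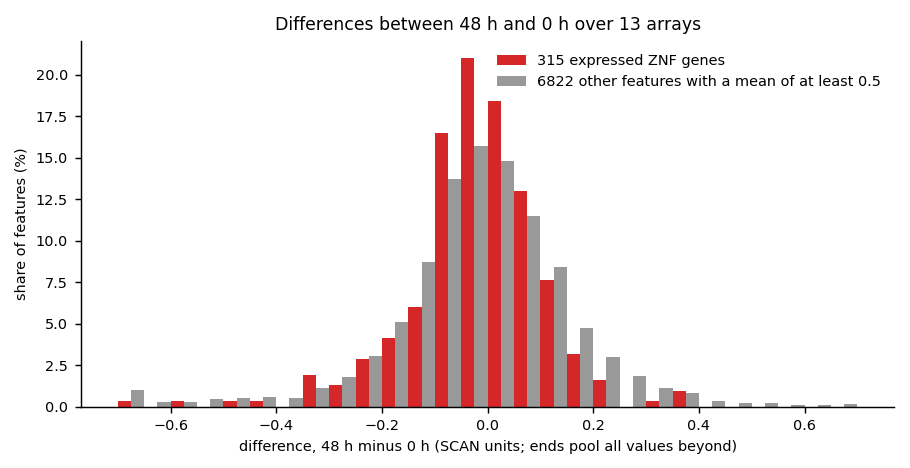
Share of features (%) by the difference between 48 h and 0 h in SCAN units over 13 arrays, in steps of 0.05, in red for the 315 expressed ZNF genes and in grey for 6822 other features with a mean of at least 0.5. The end classes pool all values beyond them. The red bars are taller near 0 and shorter in most outer classes, with 10.2% of ZNF genes and 17.3% of the others beyond 0.2 in size.

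ZNF367, a C2H2 gene of chromosome 9, fell the most. It scored 0.248, 0.369 and 0.25 at 48 h, against 1.09, 0.923 and 0.88 at 0 h. The groups were far apart, with a difference of -0.674 ± 0.0558 SCAN units (SE, adjusted p = 1.54e-05), and the 24 h arrays lay between them at 0.515 and 0.579. Over the 11 arrays the difference was -0.613. Its promoter window is shown because it holds E2F words, the sequences bound by factors that control genes of DNA synthesis. The window is chr9:96418321-96418620 on the minus strand of GRCh38.p14 (RefSeq), 250 bases before to 50 after the gene start, with capitals for E2F words on either strand (GCGCGAAA at base 216, GCGGGAAA at base 230) and for a CHR word, TTCGAA, at base 18.
ZNF367: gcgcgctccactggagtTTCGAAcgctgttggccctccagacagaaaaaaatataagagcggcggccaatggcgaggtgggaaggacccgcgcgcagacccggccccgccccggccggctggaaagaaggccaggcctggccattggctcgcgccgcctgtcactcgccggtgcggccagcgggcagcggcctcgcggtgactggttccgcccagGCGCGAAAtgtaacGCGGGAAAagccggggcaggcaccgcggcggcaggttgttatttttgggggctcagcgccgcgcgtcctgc
The E2F words searched were TTTGGCGC, TTTCGCGC, TTTCCCGC and TTTGCCGC on both strands, which 6.88% of the 276 ZNF windows held, beside 6.15% of windows of tested genes with a mean of at least 0.5 and 3.33% of all 27305 windows. The CHR words, TTTGAA and TTCGAA on both strands, were in 12.7%, 11.9% and 16.6%. A match describes the letters of a window and not a bound site.

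ZNF732 on chromosome 4 scored 0.686, 0.694 and 0.607 at 48 h, against 1.5, 1.09 and 1.07 at 0 h. The first of the 0 h values came from the array that stood apart, and the 2 h array was as high at 1.47. The difference was -0.557 ± 0.0929 over 13 arrays (adjusted p = 0.00187) and -0.417 over 11 (adjusted p = 3.45e-07). ZNF93, a KRAB protein that binds and represses LINE-1 elements in human cells, scored 1.65, 1.70 and 1.63 at 48 h, against 2.18, 2.03 and 2.08 at 0 h. The groups did not overlap, and the difference was -0.435 ± 0.0431 (adjusted p = 5.34e-05). ZNF257, which lies on chromosome 19 like ZNF93, scored 1.06, 1.13 and 1.13 at 48 h, against 1.54, 1.55 and 1.61 at 0 h. The difference was -0.461 ± 0.0365 (adjusted p = 1.1e-05), and here 0 h replicate 1 was not above the other 0 h arrays.

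ZNF326 codes for a subunit of the DBIRD complex, which acts on transcript elongation and splicing. It scored 1.05, 1.05 and 1.00 at 48 h, against 1.53, 1.28 and 1.32 at 0 h, without overlap, a difference of -0.342 ± 0.0603 (adjusted p = 0.00263). The highest of these 0 h values, 1.53, came from the array that stood apart and enlarges this difference. ZNF165, a cancer-testis gene, scored 0.737, 0.735 and 0.646 at 48 h, against 1.26, 0.957 and 0.888 at 0 h. Here again the 0 h array that stood apart was the high one, and the difference was -0.328 ± 0.0812 (adjusted p = 0.0168) over 13 arrays and -0.216 (adjusted p = 0.00134) over 11. The call for ZNF165 was lost when any 1 of the 48 h arrays was left out. The other 6 of the 12 largest falls were ZNF695 (-0.347), ZNF85 (-0.337), ZNF681 (-0.309), ZNF850 (-0.305), ZNF789 (-0.295) and ZNF90 (-0.275), with 48 h and 0 h arrays that did not overlap in any of them. Over the 11 arrays these 6 differences were, in the same order, -0.27, -0.285, -0.242, -0.26, -0.252 and -0.253.

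Among the rises ZNF83 of chromosome 19 led, with scores of 2.09, 2.09 and 2.12 at 48 h, against 1.70, 1.75 and 1.68 at 0 h. The difference was 0.388 ± 0.0359 SCAN units (adjusted p = 3.38e-05), and all arrays of 0 to 6 h lay between 1.67 and 1.79. ZNF117, a chromosome 7 gene whose transcripts can be joined with those of the endogenous retrovirus gene ERV3-1, scored 2.87, 2.97 and 2.95 at 48 h, against 2.69, 2.51 and 2.50 at 0 h. The groups did not overlap, and the difference was 0.364 ± 0.052 (adjusted p = 0.000663) over 13 arrays and 0.425 over 11. ZNF493 scored 1.94, 2.00 and 1.95 at 48 h, against 1.57, 1.63 and 1.62 at 0 h (difference 0.357 ± 0.044, adjusted p = 0.000236). ZNF362 scored 1.26, 1.26 and 1.33 at 48 h, against 0.933, 0.944 and 0.985 at 0 h (0.332 ± 0.0372, adjusted p = 0.000123). All 4 of these genes were higher on every 48 h array than on any 0 h array.

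Some smaller rises were in genes with a described role. ZNF350, a KRAB protein that binds BRCA1 and represses GADD45A, scored 1.54, 1.58 and 1.56 at 48 h, against 1.41, 1.27 and 1.38 at 0 h (0.203 ± 0.0402, adjusted p = 0.00518). ZNF655, which binds the signalling protein VAV1, scored 1.43, 1.47 and 1.44 at 48 h, against 1.32, 1.18 and 1.22 at 0 h (0.206 ± 0.0444, adjusted p = 0.00834). ZNF692, an AICAR response element binding protein, scored 0.913, 0.973 and 0.98 at 48 h, against 0.736, 0.811 and 0.779 at 0 h (0.18 ± 0.0395, adjusted p = 0.00894). None of these 3 had overlapping groups. ZNF358 scored 1.72, 1.60 and 1.67 at 48 h, against 1.20, 1.5 and 1.53 at 0 h. Its low 0 h array was the one that stood apart, the 2 h array was low too (1.28), and the difference of 0.25 ± 0.0782 (adjusted p = 0.0482) came to 0.146 over 11 arrays (adjusted p = 0.0232). The other large rises were ZNF431 (0.244), ZNF264 (0.223), ZNF211 (0.2) and ZNF581 (0.197).

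The remaining 11 rises over 13 arrays were smaller, between 0.107 and 0.172 SCAN units, with adjusted p-values between 0.00384 and 0.0471. They were ZNF337, ZNF737, ZNF862, ZNF524, ZNF277, ZNF584, ZNF419, ZNF548, ZNF836, ZNF585A and ZNF398, in falling order of the difference. The remaining 19 falls ran between -0.266 and -0.128. They were led by ZNF280B (-0.266), ZNF101 (-0.257), ZNF280C (-0.233), ZNF195 (-0.227) and ZNF43 (-0.226), and included ZNF827 (-0.187, adjusted p = 0.00835), which recruits the NuRD complex to telomeres in human cells. In none of these 30 genes did the 48 h arrays overlap the 0 h arrays, as in all 54 genes called over 13 arrays. Of the 27 genes that were higher over 11 arrays alone, ZNF75D (0.281 over 11 arrays and 0.166 over 13), ZNF284 (0.23 and 0.12), ZNF430 (0.223 and 0.167) and ZNF470 (0.217 and 0.0388) had the largest differences, and ZNF511 (-0.12 and -0.0785) was the 1 gene that was lower over 11 arrays alone. These genes are named after their values were seen.

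**Figure D3:**
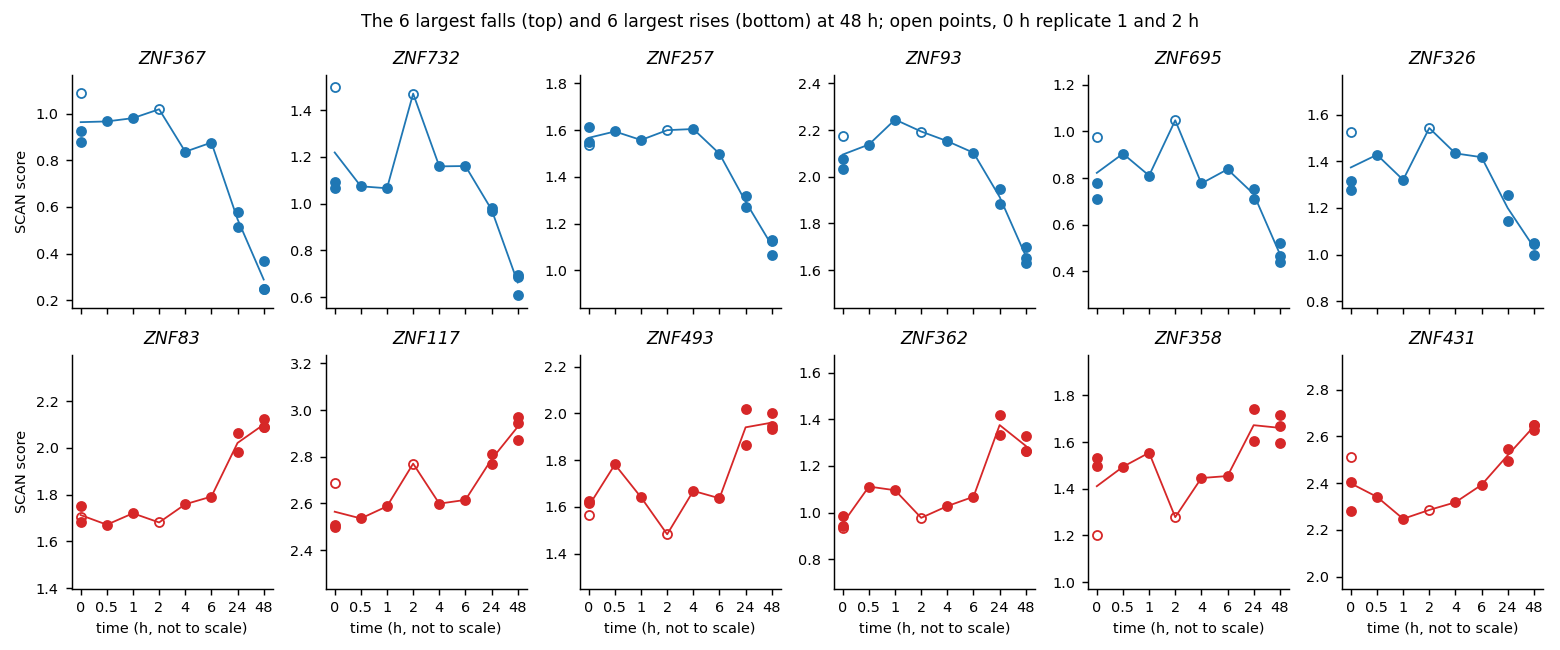
SCAN scores of the 6 largest falls (blue, top) and 6 largest rises (red, bottom) over time in hours, with 1 point an array and a line through the mean of each time point; each panel spans 1.0 SCAN unit and open points are 0 h replicate 1 and the 2 h array. In all 12 genes the 48 h points lie apart from the 0 h points, and the open points of ZNF732 (1.5 and 1.47) and ZNF358 (1.20 and 1.28) lie off the rest.

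By 24 h fewer genes passed the test. Over 13 arrays 17 ZNF genes were higher and 5 lower at 24 h than at 0 h (6.98%, beside 7.33% of all tested features and 11.3% of those with a mean of at least 0.5, of which 7.58% were higher and 3.71% lower). This split depended on the scaling: 7 were higher and 14 lower with each array centred on its median, and 11 and 9 after quantile normalisation. Features with a mean of at least 0.5 shifted likewise, to 3.57% higher and 7.08% lower with centring, and 5.06% and 5.04% after quantile normalisation. Over the 11 arrays it was 67 higher and 7 lower (23.5%, beside 17.1% and 25.3%, the last being 18.2% higher and 7.06% lower), but 27 and 23 with centring and 31 and 14 with quantile normalisation. For features with a mean of at least 0.5 these were 7.97% higher and 15.1% lower, and 10.4% and 9.85%. The lower genes at 24 h were ZNF367 (-0.416), ZNF257 (-0.274), ZNF114 (-0.266), ZNF530 (-0.213) and ZNF93 (-0.182), and the largest rises were ZNF362 (0.421), ZNF493 (0.337), ZNF83 (0.309) and ZNF430 (0.292), named here after their values were seen. ZNF114, which has the third highest mean, scored 2.46 and 2.47 at 24 h, against 2.78, 2.70 and 2.71 at 0 h (adjusted p = 0.0104), and 2.66, 2.62 and 2.51 at 48 h, which did not pass the test against 0 h (-0.134, adjusted p = 0.0577).

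For the genes called at 48 h, the part of the 48 h difference already present at 24 h depended on the scaling as well as on direction. The median share was 94.4% in the 23 higher genes and 46.7% in the 31 lower genes over 13 arrays. With each array centred these shares were 64.4% and 61.4%, and after quantile normalisation 80.5% and 57.0%. For the 11 arrays they were 98.3% and 34.1%, with centring 73.0% and 54.4%, and with quantile normalisation 79.4% and 51.5%. The share was larger in the higher genes in each of these 6 settings, taken over the genes called in that setting, by an amount that varied with the scaling and the arrays. Both comparisons use the same 0 h arrays, and the 6 settings share arrays. Over all tested features the median difference at 24 h against 0 h was 0.0158, and -0.0295 with each array centred. For the ZNF genes it was 0.03 over 13 arrays, 0.0564 over 11 arrays and -0.0152 over 13 centred arrays. The share was not computed for other features, so it cannot be called particular to ZNF genes.

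Between 24 h and 48 h 4 ZNF genes fell and 0 rose in limma over 13 arrays (1.27%, beside 2.50% of all tested features and 4.23% of those with a mean of at least 0.5, of which 0.841% rose and 3.39% fell), with 61 at an unadjusted p under 0.05. ZNF93 was at 1.65, 1.70 and 1.63 at 48 h, against 1.88 and 1.95 at 24 h (-0.253, adjusted p = 0.0192). ZNF101 was at 0.768, 0.825 and 0.752 at 48 h, against 1.02 and 0.976 at 24 h (-0.216, adjusted p = 0.0177). ZNF257 (-0.187, adjusted p = 0.04) fell further as well. ZNF382 differed from these 3, with 0.614, 0.673 and 0.631 at 48 h, against 0.845 and 0.829 at 24 h (-0.198, adjusted p = 0.0447), while its 48 h and 0 h arrays overlapped. Over the 11 arrays 2 rose and 34 fell (11.4%, beside 9.94% of all tested features and 15.4% of those with a mean of at least 0.5, of which 3.98% rose and 11.4% fell), which became 13 and 17 with each array centred and 3 and 15 after quantile normalisation. Over 13 arrays 1 rose and 2 fell with either scaling. Of features with a mean of at least 0.5, 9.72% rose and 5.87% fell over 11 centred arrays. After quantile normalisation 5.53% rose and 6.46% fell. Over 13 arrays these were 2.07% and 2.35%, and 1.12% and 2.61%.

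At the early times no ZNF gene passed the test over 13 arrays. For the mean of 4 h and 6 h against 0 h the limma count was 0, as over all tested features (0.0%), with 13 ZNF genes at an unadjusted p under 0.05. For the mean of 0.5 h and 1 h against 0 h it was also 0 (0.0% of all tested features), with 34 at an unadjusted p under 0.05. Over the 11 arrays ZNF253 passed at both (0.399, adjusted p = 0.00532 at 4 h and 6 h, and 0.37, adjusted p = 0.00568 at 0.5 h and 1 h) and ZNF675 at 0.5 h and 1 h (0.356, adjusted p = 0.0211), beside 0.204% of all tested features and 0.336% of those with a mean of at least 0.5 at 4 h and 6 h (0.28% higher and 0.056% lower), and 0.219% and 0.322% at 0.5 h and 1 h (0.308% higher and 0.014% lower). Each of these single time points has 1 array.

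By position, the 165 ZNF genes on chromosome 19 gave 15 higher and 13 lower at 48 h (17.0%), and the 150 on other chromosomes 8 higher and 18 lower (17.3%). Over the 11 arrays these were 32 and 13 on chromosome 19 and 18 and 19 elsewhere. The difference between chromosome 19 and the rest was not tested. Of 207 genes in 58 runs of ZNF genes that adjoin each other in RefSeq order, 35 were called (16.9%, beside 17.1% of the 315). Among 120 adjoining pairs of expressed ZNF genes 2 had both genes called, ZNF93 with ZNF682 and ZNF682 with ZNF90, all of them lower. Whether adjoining genes were called together more often than other pairs was not tested. These 3 genes lie in the chromosome 19 run of ZNF101 to ZNF486, in which 4 of 8 expressed genes were lower and 0 higher over 13 arrays (beside 28.3% of tested features with a mean of at least 0.5 called in either direction and 14.4% called lower): ZNF93 (-0.435), ZNF90 (-0.275), ZNF101 (-0.257) and ZNF682 (-0.22). With the 11 arrays 4 were lower and 1 higher, ZNF253 (0.173, adjusted p = 0.0115). This run was picked out of the 58 by these calls. The next listed run, ZNF737 to ZNF681, moved both ways, with 3 of 16 expressed genes higher (ZNF493, 0.357; ZNF431, 0.244; ZNF737, 0.172) and 4 lower (ZNF257, -0.461; ZNF85, -0.337; ZNF681, -0.309; ZNF43, -0.226). The counts over the 11 arrays were 5 higher and 4 lower, with ZNF430 (0.223, adjusted p = 0.00686) and ZNF675 (0.161, adjusted p = 0.0348) added to the higher genes. ZNF91, a repressor of SVA elements in human cells, lies in this run and did not pass the test (0.0614, adjusted p = 0.33). By contrast, none of the 13 expressed genes in the run ZNF283 to ZNF180 and none of the 11 in ZNF627 to ZNF791 was called over 13 arrays, and over 11 arrays 1 and 0 of them were.

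**Figure D4:**
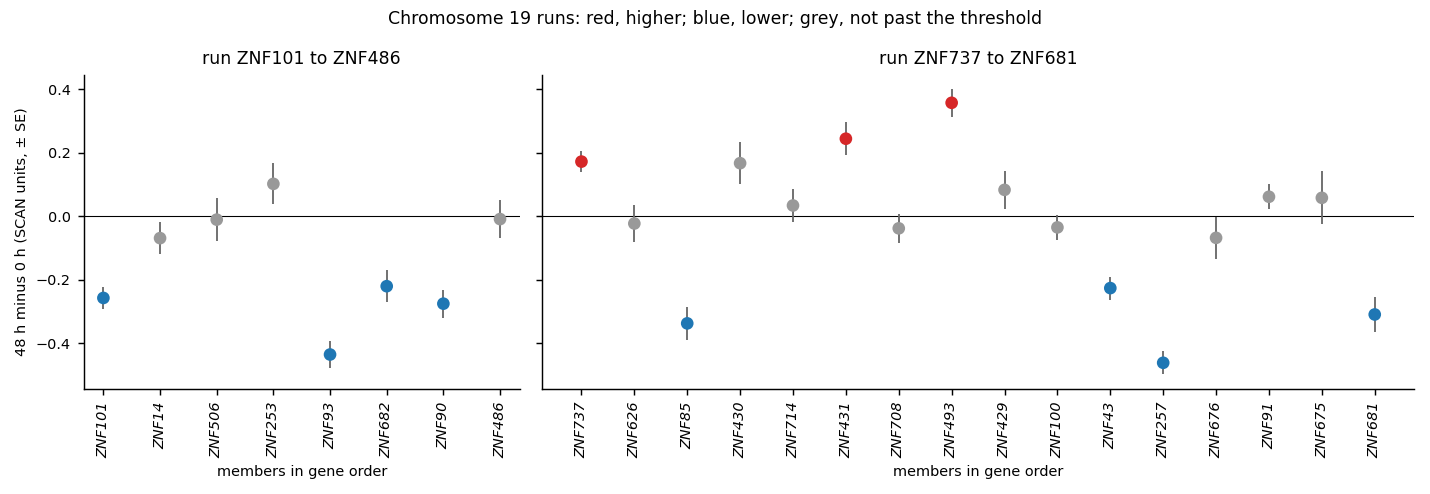
Difference between 48 h and 0 h in SCAN units, with its standard error, for the expressed ZNF genes of 2 chromosome 19 runs in gene order. Blue marks genes lower at 48 h and red genes higher past the threshold, grey the rest. The left run holds 4 blue points and no red one, and the right run holds 4 blue and 3 red.

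A feature the selection did not use was the promoter sequence. Of the 315 genes 276 had a RefSeq window of 300 bases. The ETS word CCGGAAG, on either strand, was in 43.5% of these 276 windows, in 22.0% of the 5722 windows of tested genes with a mean of at least 0.5, ZNF genes included, and in 10.7% of all 27305 windows. It is a core bound by ETS factors such as GABPA, which act at many housekeeping promoters. The share was 52.4% in the 21 windows of genes higher at 48 h, 52.0% in the 25 of lower genes and 41.7% in the 230 of genes not called. It was 48.3% on chromosome 19 and 38.0% on the other chromosomes. The words clustered at the start: 73.0% of the 137 words in ZNF windows and 58.7% of the 1571 in windows of tested genes lay within 50 bases of it. The word was thus about as frequent before ZNF genes that were higher at 48 h as before those that were lower.

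**Figure D5:**
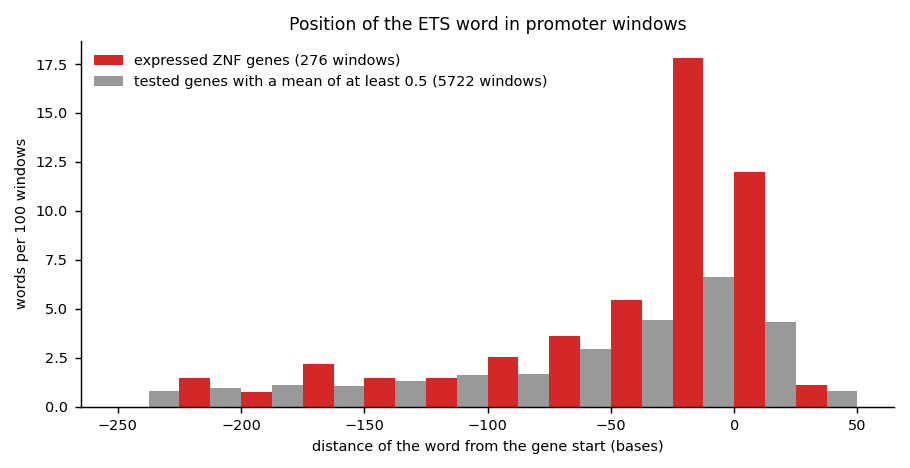
Number of ETS words per 100 promoter windows, in steps of 25 bases, by distance from the gene start in bases (negative is before it), in red for 276 windows of expressed ZNF genes and in grey for 5722 windows of tested genes with a mean of at least 0.5. Both peak in the 25 bases before the start, at 17.8 words per 100 ZNF windows and 6.62 per 100 windows of tested genes.

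In the run ZNF737 to ZNF681 the word was in 12 of 15 windows, and in ZNF101 to ZNF486 in 1 of 6. The windows of 4 genes of the first run are shown because related promoters stand before genes that moved in opposite directions. ZNF257 (chr19:22052234-22052533) and ZNF85 (chr19:20923001-20923300) were lower at 48 h, ZNF431 (chr19:21141790-21142089) and ZNF493 (chr19:21396883-21397182) higher. All are on the plus strand of GRCh38.p14, and the ETS word, here read as CTTCCGG, is in capitals.
ZNF257: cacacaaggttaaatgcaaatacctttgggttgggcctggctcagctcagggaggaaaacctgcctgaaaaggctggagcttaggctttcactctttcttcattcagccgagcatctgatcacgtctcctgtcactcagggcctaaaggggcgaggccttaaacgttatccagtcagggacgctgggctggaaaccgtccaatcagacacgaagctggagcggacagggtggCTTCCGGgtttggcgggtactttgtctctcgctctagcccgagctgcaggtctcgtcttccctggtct
ZNF85: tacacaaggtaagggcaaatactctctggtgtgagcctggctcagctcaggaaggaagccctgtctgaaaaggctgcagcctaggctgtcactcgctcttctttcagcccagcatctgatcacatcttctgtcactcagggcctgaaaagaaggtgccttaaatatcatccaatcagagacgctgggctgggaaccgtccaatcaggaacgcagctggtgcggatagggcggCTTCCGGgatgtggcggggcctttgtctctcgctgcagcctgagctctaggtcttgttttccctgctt
ZNF431: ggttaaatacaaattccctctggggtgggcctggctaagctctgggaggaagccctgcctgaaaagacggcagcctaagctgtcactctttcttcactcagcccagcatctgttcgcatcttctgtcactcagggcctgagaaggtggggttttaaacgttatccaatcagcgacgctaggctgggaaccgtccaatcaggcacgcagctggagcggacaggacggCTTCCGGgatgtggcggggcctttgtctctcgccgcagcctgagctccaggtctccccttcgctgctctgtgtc
ZNF493: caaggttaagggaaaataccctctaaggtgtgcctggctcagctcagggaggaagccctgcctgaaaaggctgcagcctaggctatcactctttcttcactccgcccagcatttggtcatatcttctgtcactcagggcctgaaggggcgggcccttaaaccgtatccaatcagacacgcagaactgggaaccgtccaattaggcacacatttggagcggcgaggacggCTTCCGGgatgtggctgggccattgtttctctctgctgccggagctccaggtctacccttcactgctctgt
Aligned on the word without gaps, over 60 bases on each side, ZNF431 and ZNF85 matched at 89.8% of 127 bases, ZNF431 and ZNF493 at 83.5% and ZNF493 and ZNF85 at 80.3%. ZNF257 matched the other windows at 52.0% to 59.8% in this ungapped alignment. A shift of 1 base just after the word puts its later bases out of register, so these shares understate how alike its window is. At 48 h ZNF431 scored 2.65, 2.65 and 2.63, against 2.51, 2.28 and 2.40 at 0 h, and ZNF85 scored 1.30, 1.39 and 1.31, against 1.78, 1.57 and 1.67 at 0 h. So the pair with the most alike windows by this ungapped measure moved in opposite directions, with no overlap of groups in either gene. This choice of windows was made with the values in view.

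A list of 49 ZNF genes with a described role was followed, 38 of them among the 315, and some of these code for KRAB proteins. At 48 h 1 was higher (ZNF655) and 3 lower (ZNF367, ZNF326 and ZNF165), which is 10.5%, beside 28.3% of tested features with a mean of at least 0.5. With the arrays centred 1 was higher and 6 lower (18.4%, beside 29.4%), and over the 11 arrays 2 were higher and 3 lower (13.2%, beside 39.3%). The next by adjusted p did not pass the test: ZNF300 (-0.155, adjusted p = 0.0502), ZNF516, an activator of brown fat genes in mice (0.116, adjusted p = 0.0577), ZNF622, a factor in maturation of the large ribosomal subunit (-0.148, adjusted p = 0.0631), and ZNF106 (-0.165, adjusted p = 0.0652).

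The proteins through which KRAB zinc fingers repress were read from a list of 21 measured genes, in which 7 were lower and 0 higher at 48 h (33.3%). Of tested features with a mean of at least 0.5, 28.3% were called, 14.4% lower and 13.9% higher. The median difference was -0.115 SCAN units for the list and -0.00778 for those features. In the fit of 11 arrays 8 were lower and 1 higher, CHD3 of the NuRD complex (0.116, adjusted p = 0.0397), which is 42.9%, beside 39.3% (18.6% lower and 20.7% higher). TRIM28, the corepressor itself, averaged 2.58 ± 0.0308 at 48 h and 2.85 ± 0.145 at 0 h (SD, n = 3 each), a difference of -0.273 (adjusted p = 0.0107) that lost its call when 48 h replicate 3 was left out and was -0.357 over 11 arrays. UHRF1 and DNMT1, which carry DNA methylation through replication, differed by -0.752 (adjusted p = 8.37e-07) and -0.306 (adjusted p = 0.000137). SUV39H2 (-0.428, adjusted p = 0.00215) and SUV39H1 (-0.243, adjusted p = 0.00749) methylate histone H3 at lysine 9. CBX5 (-0.32, adjusted p = 0.000147) is a heterochromatin protein 1 that binds this mark, and DNMT3B (-0.267, adjusted p = 0.00221) sets new DNA methylation. On 0 h replicate 1 SUV39H2 was high (1.455, against 1.155 and 1.138 on the other 0 h arrays) and SUV39H1 low (0.711, against 0.909 and 0.908). Over the 11 arrays their differences were -0.325 and -0.309. A dimmer second feature of SUV39H1 (mean 0.114) did not pass limma over 13 arrays (-0.078, adjusted p = 0.281) but did over 11 (-0.115, adjusted p = 0.0386). CBX1 and CBX3, which also code for heterochromatin protein 1, did not pass in limma (-0.13, adjusted p = 0.0518, and -0.14, adjusted p = 0.109). Of the 21 genes 4 had a difference above 0 over 13 arrays, among them DNMT3A (0.0775, adjusted p = 0.157). Several genes of the list are also known for their link to DNA replication, so the list is not specific to KRAB repression. SETDB1 was not analysed here.

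Related families were read in the same way. Of 47 expressed genes named ZBTB (26), ZFP (8), ZSCAN (9) or ZKSCAN (4), 5 were higher and 4 lower at 48 h (19.1%, beside 28.3% of tested features with a mean of at least 0.5), and 10 and 4 over the 11 arrays (29.8%, beside 39.3%). Over 13 arrays they had a median difference of 0.00619 and a standard deviation of 0.116 SCAN units over genes. The difference between these families and the ZNF genes was not tested.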

How the data were processed

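RNA of H1975 cells was hybridised to GeneChip Human Gene 2.0 ST arrays, and the authors made the deposited SCAN scores (Single Channel Array Normalisation, 1 array at a time, with no scaling between arrays stated; the version is not given in the sources used here). From these scores 15426 features with 1 gene symbol were kept, 2662 without a positive value on any array were left out, and 12764 were tested. A linear model with a coefficient for each time point was fitted to all arrays at once (limma 3.58.1 under R 4.3.3, moderated by eBayes). Its two-sided p-values were adjusted by Benjamini-Hochberg across every tested feature, with a threshold of 0.05. Precision is limited by the few arrays, which left 5 residual degrees of freedom (4 over 11 arrays). The fit was also run on simulated data with independent noise for each feature. These held no deviation of a whole array, so they do not show how the fit handles arrays that stand apart.

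Genes named were the 12 largest rises and 12 largest falls at 48 h, the 5 highest means, 5 on each side of the mean of 0.5, up to 8 of each list by adjusted p, the members called at early times and up to 5 differences of 48 h against 24 h past the threshold in each direction (4 falls passed). Members, lists and tests were chosen with earlier results of these data known. All symbols matched RefSeq, whose GRCh38.p14 promoter windows were searched for words in Python 3.11.15. The build behind the array annotation is not stated. Protein domains, arrays with growth factor and arrays of other times were not analysed here. Replicate numbers were not taken to pair the arrays. Alternatives were array sets, array weights, centring, quantile normalisation, eBayes with trend and robust, a replicate block, fewer time points in the fit, other selection limits and leaving out each replicate.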

Additional observations from a re-analysis of the deposited data

How the results depend on the processing

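Counts of ZNF genes depended on the arrays used and, after 24 h, on the scaling, as did the shares over all tested features. At 48 h against 0 h, 50 were higher over 11 arrays, 50 with array weights, 52 over 11 arrays with quantile normalisation and 51 over 11 centred arrays, and selection at a mean of at least 1 left 15 higher and 16 lower. Leaving out 1 replicate gave 13 to 50 higher and 23 to 38 lower, with medians of -0.0372 to 0.0247 SCAN units. The count of 50 was without 0 h replicate 1. Here and below, that fit is in effect the fit over 11 arrays and not separate evidence. At 24 h against 0 h the higher and lower counts were 67 higher over 11 arrays, 61 and 10 with array weights, 31 and 14 over 11 arrays with quantile normalisation, 27 and 23 over 11 centred arrays, 11 and 9 with quantile normalisation, 7 and 14 with centring (median -0.0152), 8 and 3 with a replicate block, 3 and 3 with only those time points in the fit, and 10 and 3 at a mean of at least 1. Leaving out 1 replicate gave 1 to 67 higher and 0 to 8 lower, with medians of 0.0117 to 0.0564.

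At 48 h against 24 h they were 2 and 34 over 11 arrays, 2 and 35 with array weights, 3 and 15 over 11 arrays with quantile normalisation (median -0.00169), 13 and 17 over 11 centred arrays (median 0.00283), 1 and 2 with centring (median 0.00283), 1 and 2 with quantile normalisation (median -0.00147), 3 and 32 with only those time points, 2 lower with trend and robust, 2 lower at a mean of at least 1 and 0 lower with a replicate block. Leaving out 1 replicate gave 0 to 2 higher and 0 to 34 lower, with medians of -0.0514 to -0.0391. At 4 h and 6 h 1 gene was higher over 11 arrays, with array weights and over 11 arrays with either scaling (0 to 1 with 1 replicate left out, medians -0.011 to 0.0371). At 0.5 h and 1 h 2 were higher over 11 arrays, with array weights and over 11 centred arrays, and 1 over 11 arrays with quantile normalisation, the median was -0.0342 with centring, and leaving out 1 replicate gave 0 to 2 higher with medians of -0.0087 to 0.0476. Fewer arrays or fewer genes enter several of these fits by construction, and otherwise the cause was not tested.

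Same-numbered arrays of 48 h and 0 h did not deviate together (correlations of -0.0787, -0.146 and -0.00853), so the numbers were not taken to pair them. With so few arrays in a group these correlations cannot exclude a pairing. With the replicate block 18 ZNF genes were higher and 29 lower at 48 h against 0 h. Of 820 values for single genes, 776 kept their direction and side of the threshold, 12 lost the call, 31 gained one and 1 reversed, that of ZNF382 at 48 h against 0 h (0.00265 without 0 h replicate 3, the highest of a range that began at -0.0625 without 0 h replicate 2). With 5 residual degrees of freedom and a median standard error of 0.0451 SCAN units at 48 h, small differences may be missed.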
